A study of Rattus norvegicus with 15 samples.

Results

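Among 17463 genes counted by bulk RNA sequencing in rat mammary tumours, 10 genes of B cells, lymphoid stroma and sinus macrophages were followed across all 15 libraries: CD22, BANK1, FCRLA, FCMR, SIT1, CCL21, SIGLEC1, FCNA, DNASE1L3 and IL22RA2. All 10 were present in the table. They were chosen by their read levels in 1 library, midkine 4-2, which lay far above those in all the others, so that contrast is described here and not tested. The tumours were induced in Fischer rats with N-nitroso N-methylurea (NMU), an alkylating carcinogen given intraperitoneally at 50 mg/kg on 2 occasions. Midkine rats (9 libraries) were also given recombinant rat midkine, a heparin-binding growth factor, in the 2 weeks ahead of each NMU dose (300 ug/kg per injection, 3 injections weekly). Vehicle rats (6 libraries) are labelled only as vehicle. RNA came from a small piece of each tumour, and the labels name the tissue as mammary tumour without a histological description. Libraries are named by group and title number. Vehicle 2-1 and 2-2, midkine 3-1 and 3-2, and midkine 4-1, 4-2 and 4-3 share a first number, but no label says whether that means 1 animal. The spread behind each p-value is thus one between libraries, which may be partly technical. If a shared number does mean 1 animal, the p-values count tumours of 1 animal as independent.

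Lymph nodes gather B cells in follicles and T cells around them, and both are drawn in by chemokines of stromal cells and vessels. CCL21 is the stromal ligand of the receptor CCR7, which guides lymphocytes and dendritic cells into the T cell area. Macrophages that line the lymph sinuses of mice and humans carry SIGLEC1, also called CD169 or sialoadhesin, which binds sialic acids. In rodents a lymph node lies within the inguinal mammary fat pad. Whether the piece of tumour sequenced as midkine 4-2 held lymph node tissue was not tested.

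Libraries held 4925504 to 8486523 counted reads (median 7252603), and midkine 4-2 held 7864522. Levels are CPM, read counts scaled to library size and by the trimmed mean of M-values (TMM). They are not corrected for gene length and are compared only within a gene. The limit that a count of 0 allows, 3 counts per library, lay between 0.350 and 0.713 CPM and covers counting error only. Midkine 1, rich in muscle transcripts, had a scaling factor of 0.553 where the other libraries lay between 0.890 and 1.13, which raises all its CPM relative to scaling by total reads. The muscle myosin gene MYH4, at 688 or more counts in midkine 1, 2, vehicle 2-1, 2-2, 3, 4, 5 and 6 and at 461 and 569 counts in midkine 5 and 6, had at most 1 count in midkine 3-1, 3-2, 4-1, 4-2 and 4-3.

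RefSeq promoter windows of build GRCr8 (250 bases before to 50 after a start site) were matched by symbol for 8 of the 10 genes. SIGLEC1 and IL22RA2 were not matched. The 4 windows printed here belong to the chemokine gene with the highest ratio, to a B cell surface receptor, to a B cell intracellular protein and to a secreted lectin. Capitals mark matches to the motifs listed after the sequences.
CCL21 (GRCr8 chr5:61777466-61777765, minus strand): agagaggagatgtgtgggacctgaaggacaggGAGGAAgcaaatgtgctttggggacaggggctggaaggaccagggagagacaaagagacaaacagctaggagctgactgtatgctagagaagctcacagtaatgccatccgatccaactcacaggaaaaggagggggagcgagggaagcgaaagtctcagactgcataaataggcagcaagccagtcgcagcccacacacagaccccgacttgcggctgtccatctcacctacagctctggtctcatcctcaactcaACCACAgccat
CD22 (GRCr8 chr1:95259681-95259980, minus strand): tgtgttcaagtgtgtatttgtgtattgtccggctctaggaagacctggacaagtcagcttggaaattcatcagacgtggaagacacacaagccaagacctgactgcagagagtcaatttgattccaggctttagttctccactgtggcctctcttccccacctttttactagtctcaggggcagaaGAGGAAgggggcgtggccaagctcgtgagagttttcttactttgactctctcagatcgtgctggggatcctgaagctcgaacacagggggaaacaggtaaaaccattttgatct
FCRLA (GRCr8 chr13:85702777-85703076, minus strand): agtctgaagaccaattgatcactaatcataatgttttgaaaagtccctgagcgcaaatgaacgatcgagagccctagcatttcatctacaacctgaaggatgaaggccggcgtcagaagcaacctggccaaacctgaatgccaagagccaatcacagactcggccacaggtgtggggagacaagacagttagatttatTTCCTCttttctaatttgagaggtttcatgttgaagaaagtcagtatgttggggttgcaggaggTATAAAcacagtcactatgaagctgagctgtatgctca
FCNA (GRCr8 chr3:28847188-28847487, minus strand): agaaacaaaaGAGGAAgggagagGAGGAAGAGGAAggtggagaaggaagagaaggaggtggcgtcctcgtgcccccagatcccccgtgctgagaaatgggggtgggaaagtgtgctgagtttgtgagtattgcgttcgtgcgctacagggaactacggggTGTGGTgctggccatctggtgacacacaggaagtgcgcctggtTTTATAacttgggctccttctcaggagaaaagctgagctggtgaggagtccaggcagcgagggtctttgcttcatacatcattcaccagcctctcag

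The purine-rich PU box (GAGGAA), the core bound by the blood-cell factors PU.1 and SPIB, matched on either strand in 6 of the 8 windows (CD22, FCRLA, FCMR, SIT1, CCL21 and FCNA) and in 27.6% of all 33469 windows. The FCNA window held 3 matches, at positions -240, -227 and -221 from the start site, the last 2 adjoining. In CD22 the match lay at -64, and in CCL21 at -218. The RUNX core (TGTGGT) matched in FCMR, CCL21, FCNA and DNASE1L3, against 17.3% of all windows, and the TATA box (TATAAA) in FCRLA and FCNA, against 14.2%. The TATA box match of FCRLA lay after the start site, at 12, and that of FCNA at -47 on the opposite strand (TTTATA). No window of the 8 matched the lymphoid octamer (ATGCAAAT, 1.78% of all windows), a longer PU.1 and SPIB core (GAGGAAGT, 2.42%, which contains the PU box), the palindromic EBF1 motif (0.834%) or the NF-kB motif (0.362%). The PU box and the RUNX core were added after the other motifs had been searched. A match describes letters and does not show binding. The start site of the CCL21 window is the outermost of its gene, while that of CD22 lies 10700 bases inside the annotated gene.

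The B cell genes came first in the order of roles. CD22 encodes a sialic-acid-binding inhibitory co-receptor of the B cell receptor. It stood at 219 CPM in midkine 4-2 (1828 counts), at 1.90 to 19.5 CPM in the 8 other midkine libraries (median 3.66) and at 0.842 to 4.31 CPM in the 6 vehicle libraries (median 3.40). The other midkine libraries overlapped vehicle, apart from midkine 3-2 (19.5 CPM), 3-1 (9.16 CPM) and 4-1 (8.06 CPM), which lay above every vehicle library.

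BANK1, a scaffold protein of B cell receptor signalling, stood at 80.5 CPM in midkine 4-2, at 0.713 to 6.84 CPM in the other midkine libraries (median 3.78) and at 2.48 to 7.66 CPM in vehicle libraries (median 3.23). It was the only one of the 10 whose second highest library was a vehicle library, vehicle 4. FCRLA, an Fc receptor-like protein kept inside B cells, stood at 67.0 CPM in midkine 4-2, at 0.533 to 13.5 CPM in the other midkine libraries (median 1.45) and at 0.421 to 2.14 CPM in vehicle libraries (median 1.39). Midkine 3-2 held the 13.5 CPM, and the next midkine library had 2.68 CPM.

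FCMR is the Fc receptor for IgM. Its level was 186 CPM in midkine 4-2, 5.45 to 50.9 CPM in the other midkine libraries (median 11.1) and 1.38 to 15.02 CPM in vehicle libraries (median 6.23). With midkine 3-2 at 50.9 CPM, FCMR had the smallest ratio of midkine 4-2 to the next library, 3.66, and was the only one of the 10 below 4-fold. SIT1, an adaptor of T and B lymphocytes that sets the threshold of antigen receptor signalling, stood at 74.9 CPM in midkine 4-2, at 1.34 to 6.97 CPM in the other midkine libraries (median 2.53) and at 0.583 to 3.53 CPM in vehicle libraries (median 1.26). Midkine 4-1, 3-2 and 3-1 were the other midkine libraries above every vehicle library.

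CCL21 had the highest ratio among the 10. It stood at 1545 CPM in midkine 4-2 (12877 counts), at 1.49 to 84.9 CPM in the other midkine libraries (median 19.99) and at 2.57 to 62.6 CPM in vehicle libraries (median 6.98). Midkine 3-2 and vehicle 2-2 were the next 2 libraries, so the groups overlapped across nearly their whole range. The ratio of midkine 4-2 to midkine 3-2 was 18.2, and that to the median of the 14 other libraries was 110. CCL21 made up 52.7% of the summed counts of the 10 genes in midkine 4-2 and between 4.0% (midkine 2) and 66.3% (vehicle 2-2) elsewhere.

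SIGLEC1 stood at 199 CPM in midkine 4-2, at 1.90 to 15.2 CPM in the other midkine libraries (median 7.43) and at 1.40 to 13.7 CPM in vehicle libraries (median 3.61). Midkine 4-1 and vehicle 4 were next, at 15.2 and 13.7 CPM, and the groups overlapped. FCNA encodes ficolin A, a secreted lectin that starts the lectin pathway of complement and is made by macrophages in mice. It stood at 396 CPM in midkine 4-2, at 5.21 to 36.6 CPM in the other midkine libraries (median 16.005) and at 2.81 to 14.3 CPM in vehicle libraries (median 6.94). Of the 8 other midkine libraries 5 lay above every vehicle library.

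DNASE1L3, a secreted nuclease of dendritic cells and macrophages, stood at 119 CPM in midkine 4-2, at 2.78 to 10.7 CPM in the other midkine libraries (median 5.20) and at 1.54 to 5.74 CPM in vehicle libraries (median 2.29). Each of the 8 other midkine libraries exceeded the vehicle median, and 2 exceeded the highest vehicle library. IL22RA2 encodes a soluble decoy receptor of interleukin 22 that dendritic cells make in rats and mice. Its level was 42.8 CPM in midkine 4-2 (357 counts), 0.155 to 3.56 CPM in the other midkine libraries (median 1.02) and 0.126 to 1.96 CPM in vehicle libraries (median 0.257). Outside midkine 4-2 it had at most 16 counts in any library, and in 7 of those 14 libraries it had 3 counts or fewer.

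**Figure D1:**
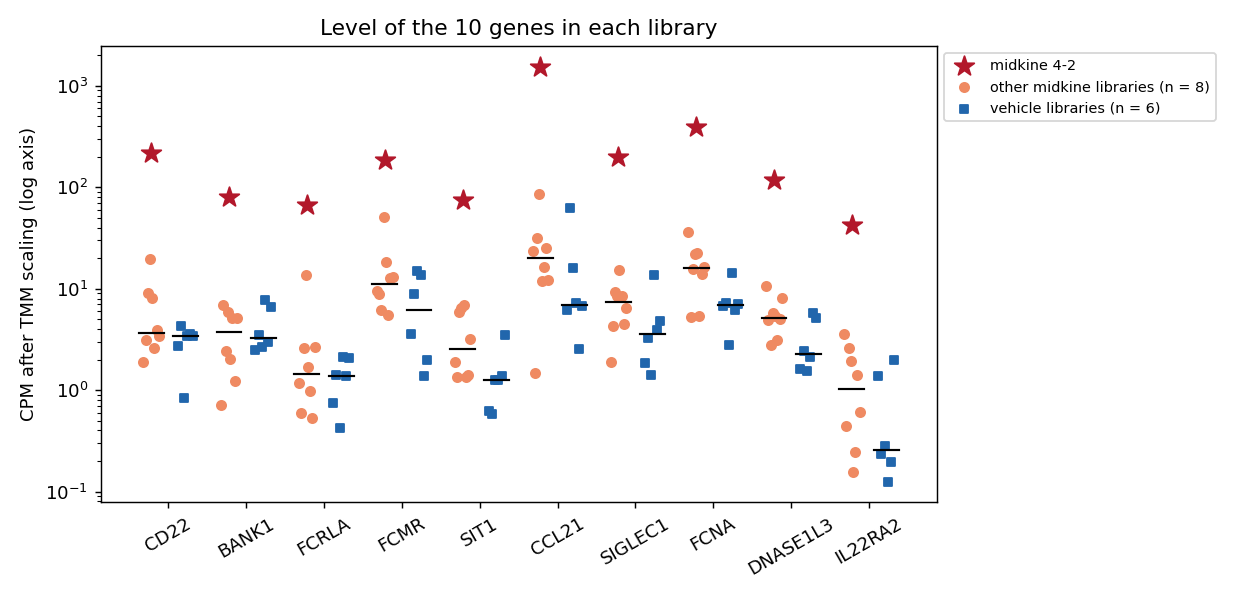
CPM of the 10 genes on a log axis, one point per library, with midkine 4-2 as a star, the 8 other midkine libraries as circles, the 6 vehicle libraries as squares and a black line at each median. Midkine 4-2 lies highest for all 10 genes, while the other midkine and the vehicle libraries overlap.

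Across the 10 genes midkine 4-2 stood 3.66 to 18.2 times above the next library (median 10.98) and 20.3 to 110 times above the median of the 14 others. It held between 55.6% (FCMR) and 85.0% (CCL21) of all reads counted for each gene. Of the 10 genes 9 were at least 4-fold above the next library, the level that 122 of 11345 genes (1.08%) reached in midkine 4-2. As the choice of the 10 used these values, nothing is read from that count. FCRLA (4.95) lay just above 4-fold and FCMR (3.66) just below.

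The midkine libraries that share the title number 4 did not share the level. CCL21 stood at 1545 CPM in midkine 4-2, against 11.9 CPM in midkine 4-1 and 16.2 CPM in midkine 4-3. SIGLEC1 stood at 199 CPM, against 15.2 and 8.42 CPM in the same order, and IL22RA2 had 357 counts, against 1 and 2. Midkine 4-3 was not among the 3 highest libraries for any of the 10 genes, while midkine 4-1 was for 4.

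The second highest library was midkine 3-2 for 4 genes (CD22, FCRLA, FCMR and CCL21), midkine 1 for 3 (FCNA, DNASE1L3 and IL22RA2), midkine 4-1 for 2 (SIT1 and SIGLEC1) and vehicle 4 for 1 (BANK1). With library totals alone in place of TMM, the 3 places of midkine 1 went to midkine 4-1 (FCNA), midkine 6 (DNASE1L3) and midkine 3-1 (IL22RA2), while the other 7 stayed. Of all 11345 genes with at least 50 counts in their highest library, 25.3% had midkine 3-2 and 21.6% had midkine 1 as the highest of the 14. Vehicle 2-1 and vehicle 3 were each among the 3 lowest libraries for 5 of the 10 genes.

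Proportions among the genes also differed between libraries. Without CCL21, FCNA made up 28.6% of the summed counts of the other 9 genes in midkine 4-2, FCMR 13.4% and BANK1 5.8%. In midkine 3-2 FCMR made up 38.0% and FCNA 16.3%, and in midkine 1 FCNA made up 53.8% and BANK1 1.0%. BANK1 reached 19.2% in midkine 2 and 17.9% in vehicle 6. The 14 other libraries thus did not hold the 10 genes in 1 fixed ratio.

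Midkine 4-2 was not the only library with genes far above all others. At least 4-fold above the next library stood 425 genes in midkine 1, 163 in midkine 3-2, 122 in midkine 4-2 and 95 in midkine 5, against at most 3 in each of the 11 remaining libraries. All 4 belong to the midkine group.

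**Figure D2:**
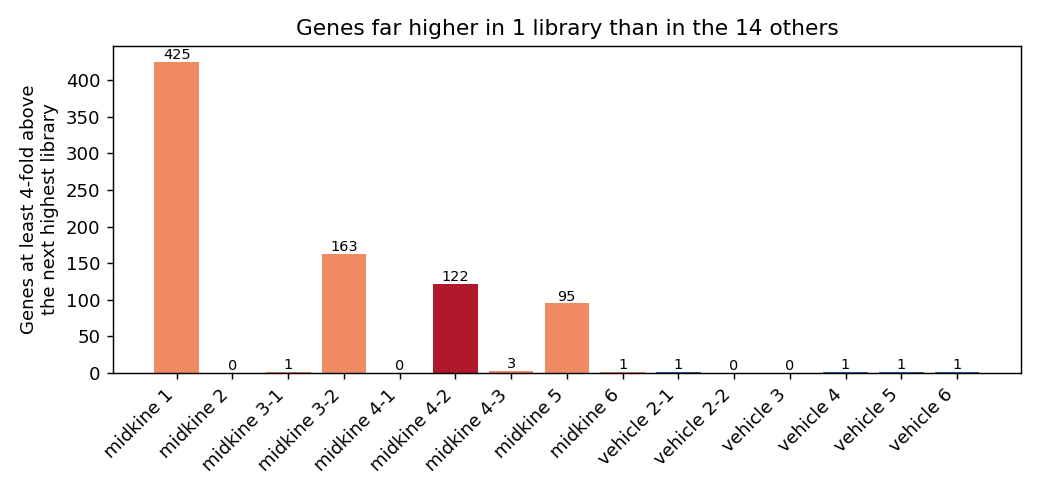
Number of genes whose CPM in a library is at least 4 times that of the next highest library, for genes with at least 50 counts in their highest library, with midkine libraries on the left and vehicle libraries on the right. Midkine 1 (425), 3-2 (163), 4-2 (122) and 5 (95) stand apart from the 11 other libraries, which have 0 to 3.

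Genes whose pattern was most like that of the 10, by the ratio of midkine 4-2 to the next of the 14 other libraries, were led by CCL19, the other ligand of CCR7. CCL19 stood at 222 CPM in midkine 4-2 (1854 counts), and the next library, midkine 3-2, had 3.41 CPM, a ratio of 65.2. The scavenger receptor MARCO, which macrophages of lymph node sinuses carry in mice, had 88.4 CPM in midkine 4-2 and a ratio of 60.5, and STAB2, a hyaluronan receptor of sinusoidal and lymphatic endothelium, had 32.6 CPM and a ratio of 52.6. The lectin gene CLEC4M followed at 426 CPM (36.1), and the complement receptor gene CR2, carried by B cells and follicular dendritic cells, at 206 CPM (23.8). Others among the first 15 were the tenascin gene TNN (20.6), BTLA, an inhibitory receptor of lymphocytes (16.04), the B cell antigen gene MS4A1 (14.9), GPR83 (14.1), SLC22A3 (17.6), ATCAY (30.3), FAM3D (26.8), PCDH15 (16.2), SHISA3 (16.01) and CAPN13 (15.02). Many of these ratios divide by few reads and are imprecise. The next library had 12 counts of MARCO, 8 each of SLC22A3 and SHISA3, 5 of STAB2 and 4 each of ATCAY, FAM3D and PCDH15. Of the 15 only TNN passed a filter on low counts over all libraries. Among all genes highest in midkine 4-2, CCL21 ranked 9 by this ratio, SIGLEC1 19 and FCMR 141.

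Beyond the 10 genes, the B cell, T cell, and NK and cytotoxic lists had their highest summed level in midkine 4-2, while the germinal centre and plasma cell list and the precursor lymphocyte list did not. The B cell list had 15 of 16 members with sufficient counts highest there, against 11.1% of all genes, with a median of 5.47 on the log2 scale above the median of the 14 others (all genes -0.01). Sufficient counts means at least 50 counts in a gene's highest library. A gene that reached this only in midkine 4-2 was bound to be highest there. CCL19, LTB, FUT7, TNFSF13B, MZB1, DERL3, STAB2, ACKR2, MARCO, VSIG4, SPIC, XCR1, GZMB and CSF3R were among such genes. The numbers of genes highest there, and the mean log2 CPM of the lists, rest in part on them. Summed levels use all measured genes. Its summed level was 1497 CPM in midkine 4-2, 50.0 to 328 CPM in the other midkine libraries (median 96.2) and 45.1 to 73.9 CPM in vehicle libraries (median 62.2). The defining B cell genes MS4A1 and CD79B had 1047 and 1284 counts in midkine 4-2. In midkine 3-2 they had 69 and 255 counts, in the 7 remaining midkine libraries at most 7, and in the 6 vehicle libraries at most 2. MS4A1 was at 0 in 5 of the 6 vehicle libraries and CD79B in 4. BANK1 and CD22 had 15 to 61 and 6 to 37 counts in vehicle libraries, where MS4A1 and CD79B were at or near 0. Genes of the B cell list differed in this. In vehicle libraries CD37 stood at 7.30 to 14.4 CPM, CD72 at 6.27 to 23.6 CPM and BLNK at 12.1 to 22.2 CPM, while CR2 had at most 3 counts. FCER2, the low-affinity IgE receptor gene, and SPIB, a transcription factor of B cells, stood at 82.2 and 88.1 CPM in midkine 4-2, at most 10.7 and 14.4 CPM in other midkine libraries, and at most 0.784 and 0.754 CPM in vehicle libraries.

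Germinal centre and plasma cell genes were highest in midkine 4-2 for 4 of 9. Among the 4, MZB1 and DERL3 reached sufficient counts only there (99 and 66 counts), so their place was fixed. The largest ratio was that of CD38, an ectoenzyme of plasma cells and activated lymphocytes, at 98.5 CPM in midkine 4-2, at most 23.9 CPM in other midkine libraries and at most 19.8 CPM in vehicle libraries. The list's mean log2 CPM ranked 2 of 15 in midkine 4-2 (4.68, with midkine 3-2 at 4.96). Its summed level ranked 4 of 15, at 494 CPM in midkine 4-2, 330 to 758 CPM in other midkine libraries and 445 to 596 CPM in vehicle libraries. In midkine 4-2 228 CPM of that sum were XBP1, a factor of secretory cells. MZB1, a chaperone of antibody-secreting cells, stood at 11.9 CPM in midkine 4-2 and at most 4.39 CPM in other midkine libraries, and IRF4, a factor of lymphocyte activation, at 58.0 CPM in midkine 4-2 and 55.2 CPM in midkine 3-2. Precursor lymphocyte genes were at or near the limit of counting, with a summed 1.08 CPM in midkine 4-2 and at most 1.78 CPM in other midkine and 0.989 CPM in vehicle libraries.

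Lymphoid stroma and high endothelial venule genes were highest in midkine 4-2 for 9 of 11, with LTB (lymphotoxin beta) at 11.9 CPM in midkine 4-2, up to 3.10 CPM in other midkine libraries and up to 0.791 CPM in vehicle libraries. FUT7, an enzyme that makes selectin ligands, stood at 13.1 CPM in midkine 4-2, at most 3.93 CPM in other midkine libraries and at most 1.38 CPM in vehicle libraries. The summed level of this list was 1225 CPM in midkine 4-2, 229 to 733 CPM in other midkine libraries and 259 to 497 CPM in vehicle libraries. Lymphatic endothelial genes were highest there for 4 of 6, with LYVE1, a hyaluronan receptor, at 126 CPM in midkine 4-2, at most 48.8 CPM in other midkine libraries and at most 39.5 CPM in vehicle libraries. Their mean log2 CPM was highest in midkine 4-2 (5.77, with midkine 3-2 next at 4.08). Their summed level ranked 8 of 15, at 432 CPM in midkine 4-2 and 728 CPM in midkine 2, where RELN (reelin) alone had 567 CPM.

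Tissue and sinus macrophage genes were highest in midkine 4-2 for 7 of 13, VSIG4 (a complement receptor of resident macrophages) at 6.96 CPM in midkine 4-2, at most 0.990 CPM in other midkine libraries and at most 0.392 CPM in vehicle libraries. SPIC, a factor of iron-recycling macrophages, had 11.4 CPM in midkine 4-2 and at most 1.80 CPM in other midkine libraries. MARCO, VSIG4 and SPIC reached sufficient counts only in midkine 4-2 (737, 58 and 95 counts), so their place there was fixed. The list's sum was 1765 CPM in midkine 4-2, 386 to 2682 CPM in other midkine libraries, with midkine 3-2 highest, and 365 to 711 CPM in vehicle libraries. The haem oxygenase gene HMOX1 made up 2097 CPM of the sum in midkine 3-2, and the list's mean log2 CPM was highest in midkine 4-2 (6.03, against 4.58 in midkine 3-2). General macrophage genes reached 2391 CPM in midkine 4-2, 348 to 1068 CPM in other midkine libraries and 279 to 635 CPM in vehicle libraries, with 5 of 8 highest in midkine 4-2, among them LYZ2 (1702 CPM in midkine 4-2, at most 637 CPM in other midkine libraries and 297 CPM in vehicle libraries). Dendritic cell genes were highest there for 8 of 12, IRF8 at 216 CPM in midkine 4-2, at most 46.5 CPM in other midkine and 15.1 CPM in vehicle libraries. Among the 8, XCR1 reached sufficient counts only in midkine 4-2 (86 counts), so its place was fixed.

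T cell genes were highest in midkine 4-2 for 14 of 17, and their sum was 2454 CPM there, 46.9 to 1072 CPM in other midkine libraries and 40.4 to 237 CPM in vehicle libraries. CD5 and CD6, receptors of T cells, stood at 147 and 110 CPM in midkine 4-2, at most 20.7 and 17.3 CPM in other midkine libraries and at most 6.80 and 6.67 CPM in vehicle libraries. NK and cytotoxic genes were highest there for 4 of 5, PRF1 (perforin) at 130 CPM in midkine 4-2, at most 50.2 CPM in other midkine and 4.31 CPM in vehicle libraries. Among the 4, GZMB (granzyme B) reached sufficient counts only in midkine 4-2 (59 counts), so its place was fixed. Of 6 neutrophil genes only CSF3R had sufficient counts, and only in midkine 4-2 (78 counts, 9.36 CPM).

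No list of another tissue had its highest sum in midkine 4-2. None of 14 mammary epithelial genes was highest there, and their sum ranked 14 of 15, at 3804 CPM in midkine 4-2, 2965 to 14852 CPM in other midkine libraries and 6727 to 10213 CPM in vehicle libraries. The keratin gene KRT8 stood at 662 CPM in midkine 4-2, 392 to 3752 CPM in other midkine libraries and 883 to 1574 CPM in vehicle libraries. Reads of this epithelial gene were thus present in midkine 4-2, at a level below every vehicle library. Muscle genes summed to 63.4 CPM in midkine 4-2, with MYH4 at 0 counts, and to 302 to 726 CPM in vehicle libraries. Adipocyte genes were high in midkine 4-2 although none of 6 was highest there. Their sum ranked 3 of 15, at 457 CPM in midkine 4-2, 46.3 to 1149 CPM in other midkine libraries (median 165) and 58.1 to 184 CPM in vehicle libraries, with a median of 2.42 on the log2 scale above the median of the 14 others. Blood endothelial genes ranked 2 of 15, at 689 CPM in midkine 4-2, 202 to 966 CPM in other midkine libraries and 174 to 391 CPM in vehicle libraries, and 1 of 8 was highest in midkine 4-2 (TEK, 52.6 CPM there and 34.8 CPM in midkine 5). None of 7 fibroblast, 3 erythroid or 8 proliferation genes was highest there, and their sums ranked 8, 4 and 12. In bulk libraries fewer cells of a type and less RNA per cell cannot be told apart, and the part of these other cell types in the levels of the 10 genes was not tested.

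**Figure D3:**
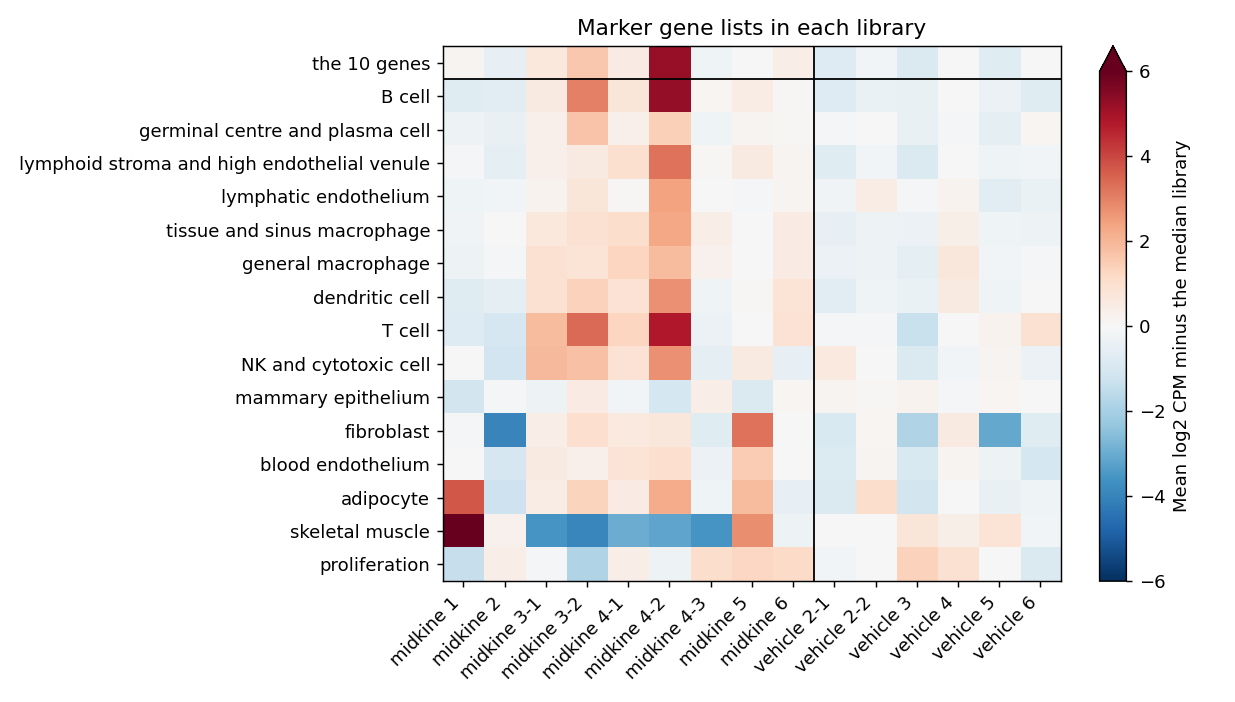
Mean log2 CPM of the 10 genes (top row) and of the marker lists with at least 5 sufficiently counted genes, as the difference from the median library of each row, with midkine libraries left of the line and vehicle libraries right. Midkine 4-2 is deepest red for the 10 genes (5.24), B cell (5.27) and T cell (4.79) rows and pale blue for mammary epithelium (-1.07), and midkine 1 exceeds the colour scale for skeletal muscle (9.73).

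The question of the study's design, whether midkine tumours differed from vehicle tumours, was put to the 10 genes without midkine 4-2, in 8 midkine and 6 vehicle libraries. The choice used these 14 libraries too, in that each had to lie below midkine 4-2. By edgeR's quasi-likelihood test none of the 9 genes tested was called at an adjusted p under 0.05, nor was any of 11602 genes (0%). IL22RA2 did not pass the filter on low counts. The groups overlapped for all 10 genes, as for nearly all genes tested (no overlap for 3 of 11602, 0.0259%). An unadjusted p under 0.05 was found for 3 of the 9 genes and for 7.83% of all genes (908, 713 higher and 195 lower in midkine). DESeq2 called 16 of the 11602 genes, 13 higher and 3 lower, and none of the 9.

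The fold change was above 0, higher in midkine, for 8 of the 9 genes and for 55.7% of all genes, with medians of 1.07 for the 9 and 0.04 for all on the log2 scale. FCNA averaged 17.2 ± 10.1 CPM in the 8 midkine libraries and 7.40 ± 3.77 CPM in the 6 vehicle libraries (SD), a log2 fold change of 1.21 (SE 0.45, edgeR adjusted p = 0.564). SIT1 averaged 3.56 ± 2.47 CPM in midkine and 1.44 ± 1.08 CPM in vehicle libraries, a log2 fold change of 1.31 (SE 0.54, edgeR adjusted p = 0.599). DNASE1L3 averaged 5.72 ± 2.60 CPM in midkine and 3.10 ± 1.84 CPM in vehicle libraries, a log2 fold change of 0.89 (SE 0.40, edgeR adjusted p = 0.631). These 3 had the unadjusted p under 0.05, and none is called over the whole table.

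CD22 had a log2 fold change of 1.09 (SE 0.53), FCRLA of 1.14 (SE 0.71), FCMR of 1.07 (SE 0.62) and CCL21 of 0.62 (SE 0.76), all with edgeR adjusted p-values between 0.644 and 0.892. Leaving out midkine 3-2 lowered all 4. Without it CD22 had 0.61 (SE 0.43), FCRLA 0.13 (SE 0.47), FCMR 0.51 (SE 0.52) and CCL21 0.05 (SE 0.71). CCL21 moved the other way without vehicle 2-2, to 1.77 (SE 0.71). SIGLEC1 had a log2 fold change of 0.60 (SE 0.52, edgeR adjusted p = 0.834), and 1.26 (SE 0.46) without vehicle 4 and 0.36 without midkine 4-1. BANK1 alone was lower in midkine, at 3.68 ± 2.33 CPM in midkine and 4.30 ± 2.22 CPM in vehicle libraries (log2 fold change -0.21, SE 0.47, edgeR adjusted p = 0.942), and it had 0.03 without vehicle 4. With no filter IL22RA2 had 0.92 (SE 0.78).

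When only the 10 libraries rich in MYH4 reads were fitted, 4 midkine and 6 vehicle, 4 of 8 tested genes were above 0 and the median of the 8 was -0.02 (all genes 0.02). FCNA had a log2 fold change of 1.28 (SE 0.51) and DNASE1L3 of 1.23 (SE 0.44) there, against 1.21 and 0.89 in the 14 libraries. Midkine 1 is among the 4 midkine libraries here and was the highest of the 14 for both genes after TMM scaling. Leaving it out of the 14 gave 0.98 (SE 0.42) for FCNA and 0.72 (SE 0.38) for DNASE1L3. Library totals alone gave 0.95 (SE 0.41) and 0.67 (SE 0.36) in the 14. CD22 stood at 0.04 (SE 0.41), FCRLA at -0.08 (SE 0.59), CCL21 at -0.11 (SE 0.91), SIGLEC1 at -0.16 (SE 0.62), BANK1 at -0.28 (SE 0.60) and FCMR at 0.57 (SE 0.61). SIT1 and IL22RA2 did not pass the filter. With midkine 4-2 included, the 15 libraries gave log2 fold changes between 1.51 (BANK1) and 3.52 (CCL21), which the choice of the genes fixes in part and which are given without a test.

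**Figure D4:**
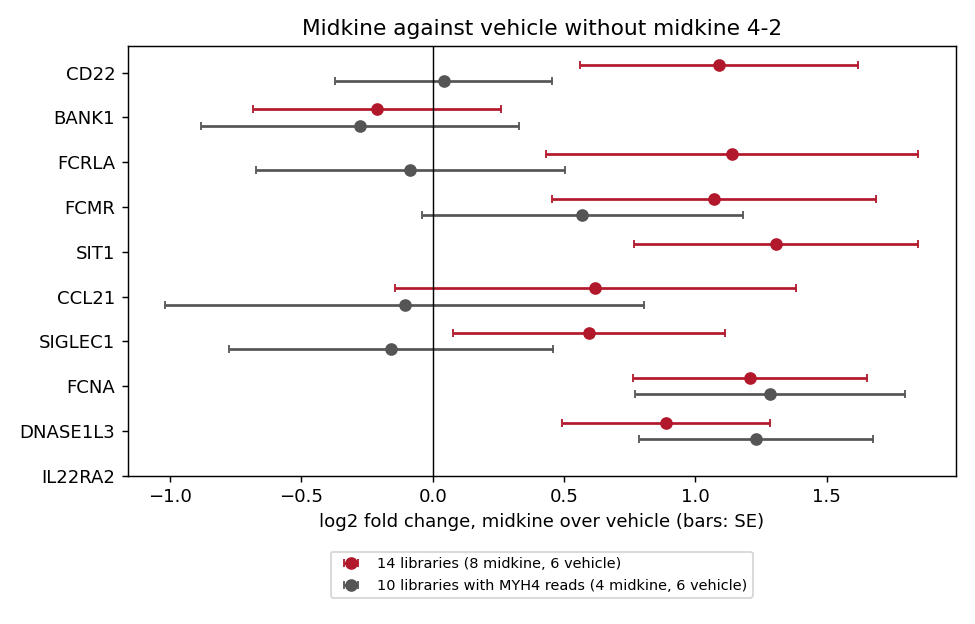
Log2 fold change of midkine over vehicle with SE bars for each gene without midkine 4-2, in 14 libraries (red) and in the 10 libraries with MYH4 reads (grey), where a gene with no point did not pass the filter. FCNA and DNASE1L3 lie above 0 by more than their SE in both, whereas CD22, FCRLA, CCL21 and SIGLEC1 lie near 0 in the 10 libraries.

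The marker lists were read in the same fit of the 14 libraries, and no member of any list was called. Of all genes tested 55.7% were higher in midkine and 7.83% had an unadjusted p under 0.05. No list was tested as a whole. The T cell sum of the 8 midkine libraries was highest in midkine 3-2 (1072 CPM), with midkine 3-1 next at 349 CPM. T cell genes were higher in midkine for 14 of 15 tested, 8 of them at an unadjusted p under 0.05, with a median log2 fold change of 1.31. Among them the CCR7 gene itself, the receptor of CCL21, was at 151 CPM in midkine 4-2 but at 288 CPM in midkine 3-2. Its log2 fold change was 4.73 (SE 1.57, edgeR adjusted p = 0.564). The CCR7 median was 4.11 CPM over the 8 midkine libraries and 1.32 CPM over the vehicle libraries (highest 2.88 CPM). The level in midkine 3-2 thus weighs heavily in that fold change. General macrophage genes were higher for 8 of 8 (median 0.57), tissue and sinus macrophage genes for 9 of 10 (0.61), dendritic cell genes for 10 of 11 (0.78), lymphoid stroma genes for 5 of 7 (0.82), NK and cytotoxic genes for 4 of 5 (0.83), lymphatic endothelial genes for 3 of 4 (0.52) and germinal centre and plasma cell genes for 6 of 8 (0.41). Only 6 of the B cell genes passed the filter, 5 of them higher (median 0.57), and MS4A1 and CD79B were not among them. Of the lists of other tissues, skeletal muscle genes were higher in midkine for 7 of 7 (6.55), adipocyte genes for 5 of 5 (1.74), fibroblast genes for 6 of 7 (1.52), erythroid genes for 3 of 3 (0.90) and blood endothelial genes for 8 of 8 (0.71). The muscle sum was 304952 CPM in midkine 1. Its median over the 8 midkine libraries (280 CPM) lay below the vehicle median (441 CPM). The fibroblast sum was 130046 CPM in midkine 5, with medians of 5172 CPM in midkine and 1806 CPM in vehicle libraries. Midkine 1 and midkine 5 are both among the 10 libraries with MYH4 reads. Proliferation genes were higher for 5 of 8 (0.05) and mammary epithelial genes for 6 of 14 (-0.09). Within the 10 libraries with MYH4 reads the medians were 7.56 for skeletal muscle, 2.31 for adipocyte, 2.00 for fibroblast and 0.68 for blood endothelial genes. They were 0.15 for T cell, 0.09 for general macrophage, 0.19 for tissue and sinus macrophage, 0.12 for dendritic cell, 0.10 for lymphoid stroma and 0.07 for B cell genes.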

How the data were processed

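Poly(A)-selected RNA of 15 NMU-induced rat mammary tumours was sequenced as 150-bp read pairs, per the labels' protocols. The authors deposited whole-number read counts for 17463 gene symbols, not normalized. The build is rn6, per the submitters' processing notes. Aligner version, counting mode and strand setting: not given in the sources used here. IL22RA2 overlaps a non-coding gene in the RefSeq annotation, so its reads are uncertain. Promoter letters came from RefSeq, build GRCr8.

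The tools were R 4.3.3, edgeR 4.0.16 (TMM, expression filter by group, quasi-likelihood test, Benjamini-Hochberg adjustment over all genes, threshold 0.05) and DESeq2 1.42.0. Midkine 4-2 was left out of the fit because the genes had been chosen on it. The 10 genes and the 18 marker lists were chosen with earlier results of these data known, and no list holds any of the 10. The rule for names took the 10 genes, up to 4 genes per list by the ratio of midkine 4-2 to the next library (up to 3 by mean level where none was highest there) and the 15 other genes of largest ratio, not all of which are described. Named after their values were seen were CD79B, CD37, CD72, BLNK, CCR7, XBP1, RELN and HMOX1. One marker of the B cell list is not reported here. Log2 CPM used a prior count of 2. With simulated counts for the 14 libraries (11602 genes, of which 200 were altered), edgeR called 23.5% of the 2-fold, 85.0% of the 4-fold and 94.0% of the 8-fold alterations. Libraries within each group differed beyond sampling noise, the smallest chi-square being 20.3 per degree of freedom.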

Additional observations from a re-analysis of the deposited data

Results flagged for a closer look

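Of 30 sets of values (10 genes, each in the 9 midkine, the 8 midkine without 4-2 and the 6 vehicle libraries) 9 held a library whose log2 CPM stood far from the rest by Dixon's ratio of gap to range. Chance flags about 1 in 20 sets. Among the 9 midkine libraries midkine 4-2 stood apart for DNASE1L3 (0.651), SIT1 (0.609), SIGLEC1 (0.566), FCNA (0.555), BANK1 (0.552), IL22RA2 (0.526) and CD22 (0.522), which the choice of the genes fixes. CCL21, FCMR and FCRLA did not pass there, each with midkine 3-2 next highest. Midkine 3-2 stood apart for FCRLA among the 8 other midkine libraries (0.544), at 13.5 CPM with the next at 2.68 CPM. Among the vehicle libraries vehicle 3 was low for CD22 (0.699), at 0.842 CPM (6 counts) where the others had 2.73 to 4.31 CPM.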

How the results depend on the processing

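Of the values recomputed under alternatives, 297 kept their direction and side of the threshold or stayed within the spread, and 5 turned. The 122 genes at least 4-fold above the next library in midkine 4-2 became 381 at 2-fold and 37 at 8-fold. DESeq2 called 16 genes where edgeR called 0 in the 14 libraries, and with 1 library left out edgeR called 0 each time. The number of the genes higher in midkine, 8 of 9, was 4 of 8 within the libraries with MYH4 reads and ran from 8 to 10 with 1 library left out. BANK1 turned to 1.51 with midkine 4-2 included, to 0.031 without vehicle 4, and ran from -0.39 to 0.031 with 1 library left out. Within the libraries with MYH4 reads FCRLA turned to -0.084, CCL21 to -0.11 and SIGLEC1 to -0.16. The cause was not tested. With library totals alone the median of all genes moved from 0.04 to -0.12, and 429 of 780 genes at an unadjusted p under 0.05 were higher, against 713 of 908. Without vehicle 2-1 605 genes had that p. The title number as a replicate block left 296 genes at an unadjusted p under 0.05, called 0 and kept 8 of 9 genes higher. The deviations of same-numbered libraries of the 2 groups correlated at -0.47 to 0.21, over 0.1 for 1 of 8 pairs. Pairs without a shared number reached 0.38 (midkine 4-3 with vehicle 3), so this measure cannot tell whether a number marks anything shared. With libraries of 1 title number summed (6 midkine, 5 vehicle) 8 of 9 genes were higher and 0 called. Depth limits IL22RA2 outside midkine 4-2.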

Other observations

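Other genes at least 4-fold above the next library in midkine 4-2, named after their values were seen, included receptors and adhesion molecules of lymphocytes and their environment. The B cell receptor gene TNFRSF13B and the chemokine receptor gene CCR6 were among them. So were GPR18, the integrin genes ITGAL, ITGB7 and ITGB2, the vascular adhesion gene VCAM1 and the class II regulator CIITA. IGF2, GREM1 and NTRK2 were also at least 4-fold above the next library in midkine 4-2.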
